A study of Mus musculus with 24 samples.

Results

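The EZH2 inhibitor GSK-126 was compared with its DMSO vehicle in cultured mouse cerebellar granule neurons (CGNs), by CUT&RUN for histone H3 lysine 27 trimethylation (H3K27me3). The comparison comprised the 6 libraries labelled for this experiment, of 24 in the series: 3 replicates that received 5 µM GSK-126 and 3 that received DMSO. The drug or vehicle was added a single time at day in vitro 1 (DIV1) and the cells were harvested at DIV5, so exposure ran from DIV1 to DIV5. In both groups, granule neuron progenitors were isolated on a Percoll gradient from early postnatal cerebella of CD1-IGS mice of both sexes, cultured, and given 1 µM cytosine arabinoside (AraC) at DIV2 to stop the division of non-neuronal cells. A replicate was a culture from pooled litters. The measurement asked which H3K27me3 in these neurons depended on EZH2 activity between those days. In the paper's viability assay, the GSK-126 dose toxic to CGNs was above, but not far from, the 5 µM used here. The part of toxicity in these values was not tested. The mark was measured in bulk chromatin, so fewer marked cells and less of the mark per cell cannot be told apart.

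H3K27me3 is written by Polycomb repressive complex 2 (PRC2), in which EZH2 or its paralog EZH1 is the catalytic subunit and EED and SUZ12 are core partners. KDM6 demethylases remove the mark, and PRC1 complexes that carry CBX proteins read it. The mark is typical of CpG-rich promoters of developmental genes that are silent in a given cell, such as transcription factors and signalling ligands of other lineages. GSK-126 competes with the methyl donor for the catalytic site of EZH2. In a cell that no longer divides, the mark is not diluted by replication, so its loss depends on turnover of histones and on demethylation.

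Each library was represented by its deposited list of broad peaks, called on that library alone. Coverage is used here for the percentage of a feature that lay under the peaks of a library. A feature was a promoter window (3 kb on each side of the 5′ end of 1 of 21938 protein-coding genes), a gene body (the rest of the gene span) or a 10 kb bin of the genome. Every feature was measured with all deposited peaks, and again at equal length, with each list limited to its strongest peaks by the authors' −log10 p until they summed to 1.07 Mb, the length of the shortest list. The first setting holds differences in how much was called, and the second removes them. A change is the GSK-126 mean minus the DMSO mean in percentage points, given with its standard error. Words such as lost, cleared or kept describe GSK-126 against DMSO at DIV5. Removal of the mark and a failure to gain it after DIV1 cannot be told apart in this comparison. Changes were tested with limma over all features covered in at least 3 of the 6 libraries, with a Benjamini-Hochberg adjusted p under 0.05 as the threshold. The files hold no read counts, so the depth of a library is unknown. A feature at 0 had no peak above the caller's threshold, which does not show that it lacked the mark.

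Few promoters of granule neuron identity genes held peaks, as was so over all promoters. Of 19 such promoters, among them Neurod1, Zic1 and Pax6, 0 had a peak in all 3 DMSO libraries and 6 had one in any of the 6 libraries. Over all 21938 promoters the corresponding counts were 1893 and 6330. Their mean coverage ranged from 0% to 0.119% with DMSO and from 0.193% to 0.385% with GSK-126. Among markers of other cells, 6 of 38 glial, microglial and vascular promoters and 7 of 20 Purkinje cell and interneuron promoters were peaked in all 3 DMSO libraries. These files hold peaks and no expression values, so the label was checked by the mark at marker promoters alone. Counts this small do not establish it.

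Less chromatin was called as marked with GSK-126 than with its own DMSO. Peaks covered 3.29, 4.23 and 3.55 Mb in DMSO replicates 1 to 3 and 2.00, 1.07 and 1.63 Mb in GSK-126 replicates 1 to 3. Every GSK-126 library lay below every DMSO library, and the mean fell from 3.69 ± 0.482 to 1.57 ± 0.468 Mb (SD, n = 3 each), a ratio of 0.424. The 2-sided exact permutation p was 0.1, the smallest that 3 libraries against 3 allow, and 0.15 after adjustment over the 12 whole-library measures tested. Wide peaks were depleted as well. Peaks of 1 kb or more numbered 308, 408 and 352 with DMSO and 136, 28 and 67 with GSK-126, and they held 12.04%, 12.3% and 12.6% of the length against 8.48%, 3.65% and 5.28%. The groups did not overlap in either count.

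Over each library's whole list, peaks were a little higher over background with GSK-126, although the lists did not hold the same peaks. The median fold enrichment of a library's peaks was 3.79, 3.76 and 3.79 with DMSO and 3.94, 4.17 and 4.15 with GSK-126, with no overlap between groups (exact permutation p = 0.1). The loss was spread over the genome. Length in promoter windows averaged 1.45 Mb in the DMSO libraries and 0.662 Mb in the GSK-126 libraries, length in gene bodies 0.861 and 0.347 Mb, and length between genes 1.38 and 0.556 Mb, which are ratios of 0.458, 0.403 and 0.402. The share of length in promoters did not separate the groups (41.3%, 37.3% and 39.3% against 39.7%, 37.6% and 48.6%, exact permutation p = 0.6). Replicates shared little of their covered length: the Jaccard overlap averaged 25.9% between DMSO libraries, 18.2% between GSK-126 libraries and 15.4% between libraries of different group and replicate number.

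GSK-126 replicate 3 stood apart from the other 5 libraries. Promoters with a peak numbered 2805, 3179 and 2835 with DMSO and 2034, 1348 and 3285 with GSK-126, so replicate 3 had the most of all 6 libraries in spite of its short list. Of its 3285 promoters, 1754 (53.4%) had no peak in any other library, against 9.54% and 6.08% in GSK-126 replicates 1 and 2 and 9.66% to 15.5% in the DMSO libraries. The peaks in these promoters numbered 1534, held 16.7% of its length and had 10.3 CpG per 100 bp, against 3.95 in its other peaks. Promoters of ribosomal protein genes, which are active in every cell, showed the same excess, with a peak at 10, 9 and 12 of 76 in the DMSO libraries and at 8, 6 and 17 in the GSK-126 libraries. At 12 of the 76 the peak was in GSK-126 replicate 3 alone.

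**Figure D1:**
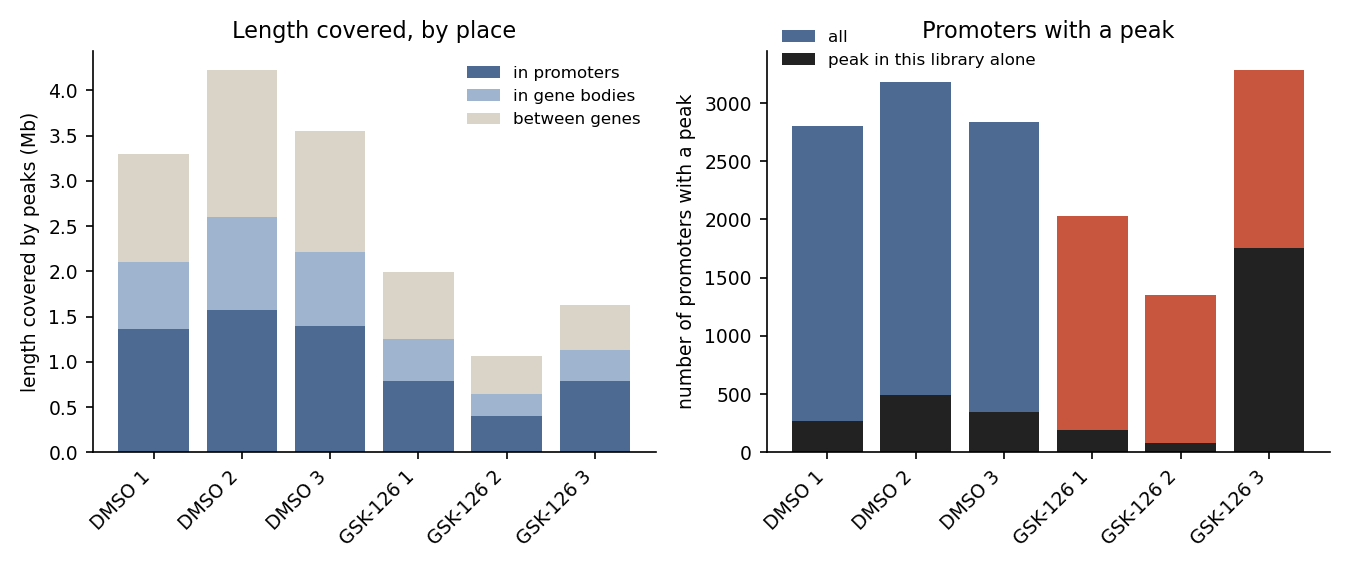
Length covered by H3K27me3 peaks (Mb) in each of the 6 libraries, divided into promoter windows, gene bodies and the space between genes (left), and number of promoters with a peak in each library, with the part peaked in that library alone in black (right; blue, DMSO; red, GSK-126). The 3 GSK-126 libraries (1.07 to 2.00 Mb) were shorter than the 3 DMSO libraries (3.29 to 4.23 Mb), and GSK-126 replicate 3 held 1754 promoters that no other library had.

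Of the promoters that every DMSO library marked, more kept a peak in every GSK-126 library than lost all of them. A peak was present in all 3 DMSO libraries at 1893 promoters. Of these, 70.1%, 50.9% and 56.4% had a peak in GSK-126 replicates 1, 2 and 3, 733 (38.7%) had one in all 3, and 390 (20.6%) in none. The converse was rare. Only 8 promoters had a peak in all 3 GSK-126 libraries and in no DMSO library (23 in both of replicates 1 and 2), and 89.9% of the 815 promoters peaked in every GSK-126 library were peaked in every DMSO library. Without GSK-126 replicate 3, 868 of the 1893 (45.9%) kept a peak in both remaining libraries and 470 had none.

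With all peaks, coverage fell at 636 of 2385 tested promoters (26.7%) and rose at 5 (0.21%). The 636 lay at 615 separate loci, since some neighbouring genes share a window. Mean coverage of the tested promoters was 9.498% with DMSO and 3.95% with GSK-126, the median change was −4.77 percentage points, and the GSK-126 mean was lower at 2084 of 2385. At 1098 promoters (46.0%) every GSK-126 library lay below every DMSO library. The called promoters had a median change of −11.8 points, and 181 of them had no peak in any GSK-126 library. Before adjustment, 985 promoters were lower and 11 higher at p under 0.05. The number called lower was 340 and 297 when GSK-126 replicates 3 and 2 were left out, and between 427 and 641 without any other library.

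At equal length the direction was less one-sided. Coverage fell at 41 of 939 tested promoters (4.37%) and rose at 23 (2.45%), with a median change of −0.506 points over those tested. These calls depended on the fit: with a mean-variance trend in eBayes 1 was lower and 0 higher, and with a replicate block 0 and 0. They also depended on the measure of strength. With the lists ranked by fold enrichment in place of −log10 p, 64 were lower and 27 higher, of which 15 and 0 were shared with the calls by −log10 p. The promoters that fell were nearly all among those that fell with all peaks: 40 of the 41 were called in both settings. The 23 that rose were of another kind. With all peaks each of them had a peak in all 3 DMSO libraries, and their mean coverage was 14.8% with DMSO and 13.9% with GSK-126, with the GSK-126 mean higher at 11 of 23. At equal length 18 of them were at 0 in every DMSO library. The peaks of those 18 were thus present in both groups, and stood among the strongest 1.07 Mb by −log10 p with GSK-126 only. None of the 23 was called higher when the lists were ranked by fold enrichment. With all peaks 2 of the 23 were called lower. The equal-length counts depended on single libraries: without DMSO replicates 1, 2 and 3 they were 22, 1 and 21 lower, and without GSK-126 replicates 1, 2 and 3 they were 20, 6 and 6 lower. The corresponding numbers higher were 7, 0, 6, 16, 4 and 8.

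**Figure D2:**
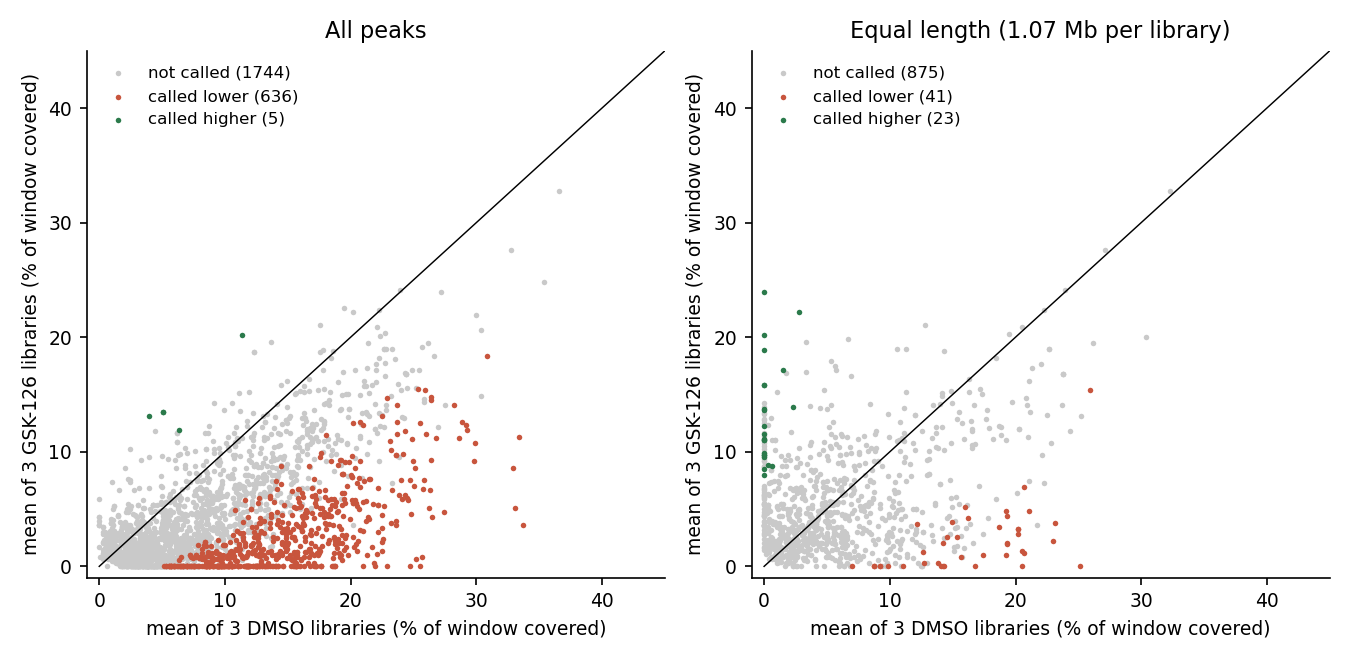
Mean coverage of each tested promoter with DMSO (horizontal axis, percent of the 6 kb window) and with GSK-126 (vertical axis), with all peaks (left, 2385 promoters) and at equal length (right, 939 promoters). Points are promoters, the line marks equal coverage, and colours mark promoters called lower (636 and 41) or higher (5 and 23) with GSK-126.

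The losses that stood out in both settings were at genes of varied function. The 12 with the largest mean loss among those called lower in both, with groups that did not overlap in either, were Wwtr1, Pdzrn4, Bmp3, Car2, Ptprm, Rgmb, Slc1a5, Jam2, Dkk2, Tmem196, Npy2r and Kank1. Bmp3, a ligand of the bone morphogenetic protein family, kept a low level in each GSK-126 library. Its window (chr5:98851415-98857414, plus strand, GRCm38/mm10 throughout) was covered over 23.8%, 24.9% and 20.9% in the DMSO libraries and 3.77%, 4.18% and 3.30% in the GSK-126 libraries. The change was −19.4 ± 1.69 points (SE, adjusted p = 0.00238) with all peaks and −19.4 at equal length, the same loss in both settings. The 10 kb bin that holds this window, also called lower at equal length, turned to a change of 2.25 points when the equal-length lists were ranked by fold enrichment. A peak persisted at Bmp3 in each GSK-126 library, over a small part of the stretch that DMSO neurons had marked. Rgmb encodes a coreceptor of the same pathway (chr17:15828039-15834038, minus strand). Its coverage was 22.1%, 21.2% and 12.2% in the DMSO libraries, in replicate order, and 0% in all 3 GSK-126 libraries, a change of −18.5 ± 2.81 points (adjusted p = 0.00605), so that every peak was lost.

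Wwtr1, which encodes the Hippo pathway coactivator TAZ (chr3:57572910-57578909, minus strand), was covered over 27.2%, 22.7% and 17.8% in the DMSO libraries and 4.98%, 0% and 2.22% in the GSK-126 libraries. Its change, −20.2 ± 2.74 points (adjusted p = 0.00465), was the largest of the 12. Kank1, a regulator of the actin cytoskeleton (chr19:25233975-25239974, plus strand), was covered over 13.9%, 24.5% and 23.7% in the DMSO libraries and 6.23%, 1.37% and 7.53% in the GSK-126 libraries. Both genes kept a short peak in at least 2 GSK-126 libraries, and in neither did the highest GSK-126 value reach the lowest DMSO value. Kank1 was the least stable of the set, since its call was lost without DMSO replicate 2, DMSO replicate 3 or GSK-126 replicate 2.

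A pair of the 12 are cell adhesion genes. Jam2, a junctional adhesion molecule (chr16:84771123-84777122, plus strand), had 20.1%, 19.1% and 18.8% in the DMSO libraries and 0%, 0% and 6.20% in the GSK-126 libraries. Ptprm, a receptor phosphatase that binds itself between cells (chr17:67351457-67357456, minus strand), had 27.1%, 22.6% and 27.4% in the DMSO libraries and 6.73%, 0% and 13.6% in the GSK-126 libraries. The GSK-126 libraries disagreed at both genes: Jam2 kept a peak only in replicate 3, and Ptprm kept 13.6% there while replicate 2 had none. All 3 nevertheless lay below the lowest DMSO library, with changes of −17.3 ± 2.13 and −19.0 ± 3.52 points (adjusted p = 0.00361 and 0.0106).

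Slc1a5 and Car2 were close to cleared. Slc1a5, a transporter of glutamine and other neutral amino acids (chr7:16778340-16784339, plus strand), had 19.3%, 20.4% and 18.1% in the DMSO libraries and 0%, 0% and 3.03% in the GSK-126 libraries. Car2, a cytosolic carbonic anhydrase (chr3:14883273-14889272, plus strand), had 20.9%, 21.8% and 18.8% in the DMSO libraries and 0%, 3.98% and 0% in the GSK-126 libraries. Each kept a peak in 1 GSK-126 library, replicate 3 for Slc1a5 and replicate 2 for Car2, and their changes were −18.2 ± 1.69 and −19.2 ± 1.86 points (adjusted p = 0.00238 for both). Npy2r, a receptor for neuropeptide Y (chr3:82545084-82551083, minus strand), had 16.9%, 16.8% and 13.2% in the DMSO libraries, in replicate order, and 0% in all 3 GSK-126 libraries. Dkk2, a secreted modulator of Wnt signalling (chr3:132082292-132088291, plus strand), had 20.6%, 23.0% and 22.8% in the DMSO libraries and 8.22%, 6.38% and 1.42% in the GSK-126 libraries. Dkk2 kept a peak in every GSK-126 library and Npy2r in none. The remaining members, Pdzrn4 (chr15:92393881-92399880, plus strand) and Tmem196 (chr12:119942822-119948821, plus strand), fell from 23.6% ± 2.81 to 3.92% ± 2.50 and from 17.4% ± 1.80 to 1.01% ± 1.75 (SD, n = 3). Adjusted p over the 12 ranged from 0.00238 to 0.0158 with all peaks.

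**Figure D3:**
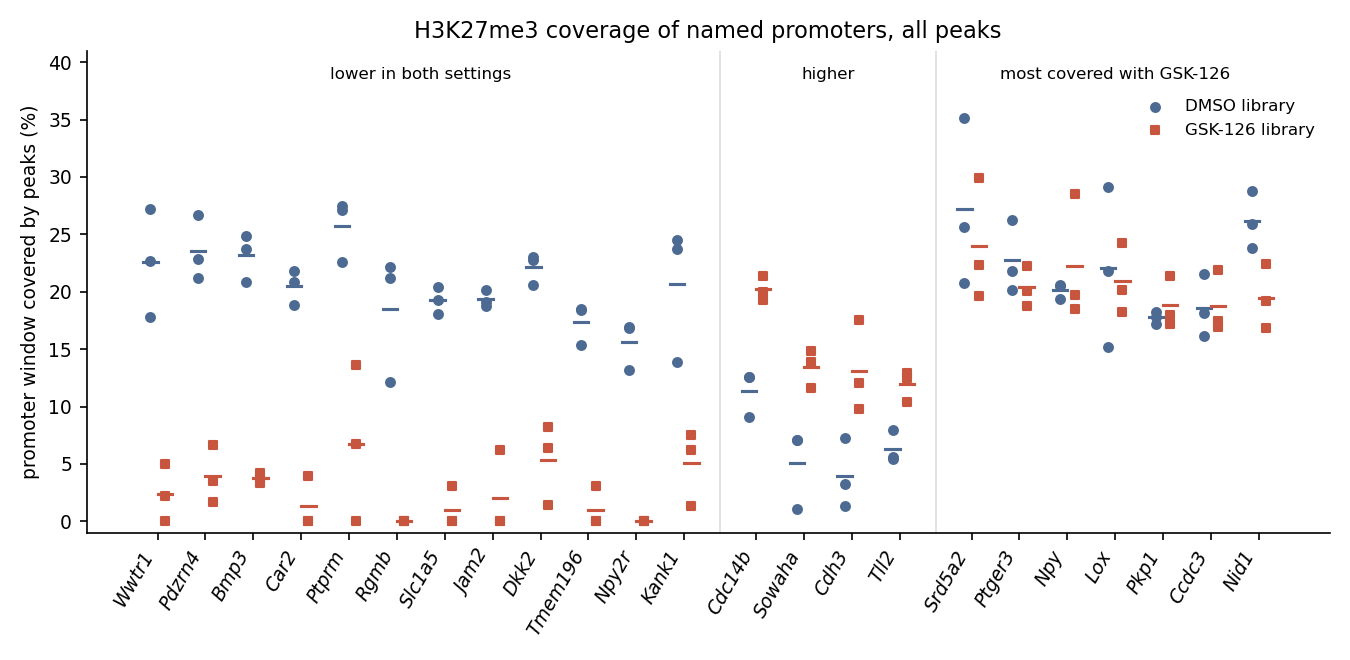
Coverage (percent of the 6 kb promoter window, all peaks) in each of the 6 libraries at the 12 promoters with the largest loss in both settings, the 4 promoters called higher with GSK-126 and the promoters most covered with GSK-126. Points are libraries and horizontal marks are group means; the groups do not overlap at the 12 lower and 4 higher promoters, and overlap at most of the last set.

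The marked stretches themselves are shown with their CpG dinucleotides, since PRC2 is known to favour CpG-rich DNA. The first set was under a peak in all 3 DMSO libraries and in no GSK-126 library and lay outside exons. It is printed as examples of chromatin marked with DMSO and without a peak with GSK-126. Stretches of up to 300 bases are given 5′ to 3′ on the strand of the gene, from the GRCm38 (mm10) reference, with each CpG in capitals. The Bmp3 stretch (chr5:98855423-98855705, plus strand) began 1008 bp past the 5′ end in an intron, the Gli3 stretch (chr13:15464269-15464568, plus strand) and the Kcns3 stretch (chr12:11150406-11150705, minus strand) also lay in introns, and the Npy2r stretch (chr3:82548282-82548581, minus strand) lay upstream of the gene. These stretches held 10, 31, 24 and 9 CpG.
Bmp3: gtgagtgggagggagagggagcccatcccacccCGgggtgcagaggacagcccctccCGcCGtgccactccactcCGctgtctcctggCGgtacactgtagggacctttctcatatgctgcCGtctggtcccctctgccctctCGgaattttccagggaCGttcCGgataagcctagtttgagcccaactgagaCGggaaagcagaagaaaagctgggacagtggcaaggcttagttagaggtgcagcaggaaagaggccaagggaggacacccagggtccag
Gli3: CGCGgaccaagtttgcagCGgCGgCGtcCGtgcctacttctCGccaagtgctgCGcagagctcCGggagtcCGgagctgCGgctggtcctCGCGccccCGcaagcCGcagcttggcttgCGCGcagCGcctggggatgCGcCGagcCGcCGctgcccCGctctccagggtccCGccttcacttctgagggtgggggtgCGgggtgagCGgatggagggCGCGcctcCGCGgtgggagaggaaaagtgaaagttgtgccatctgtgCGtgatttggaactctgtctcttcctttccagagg
Kcns3: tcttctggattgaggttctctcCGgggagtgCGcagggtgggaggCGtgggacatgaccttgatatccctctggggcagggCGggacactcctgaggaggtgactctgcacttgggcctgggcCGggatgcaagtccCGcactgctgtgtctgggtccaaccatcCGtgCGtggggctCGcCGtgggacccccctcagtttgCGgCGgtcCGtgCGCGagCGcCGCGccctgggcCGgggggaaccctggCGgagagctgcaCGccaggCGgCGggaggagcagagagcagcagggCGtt
Npy2r: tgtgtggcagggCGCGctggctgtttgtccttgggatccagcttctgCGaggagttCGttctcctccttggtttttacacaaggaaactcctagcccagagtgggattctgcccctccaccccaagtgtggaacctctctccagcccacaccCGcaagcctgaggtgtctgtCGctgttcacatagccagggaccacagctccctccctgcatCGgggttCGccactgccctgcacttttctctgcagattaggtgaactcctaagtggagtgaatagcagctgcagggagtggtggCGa

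The next set is shown in the same notation. It was under a peak in all 6 libraries (kept), or, for Cdh3, in all 3 GSK-126 libraries and in no DMSO library. The Npy stretch (chr6:49822422-49822709, plus strand) ended at the base before the 5′ end, and the Nid1 (chr13:13438050-13438349, plus strand) and Cdh3 (chr8:106511406-106511569, plus strand) stretches lay in introns. These stretches held 24, 16 and 12 CpG. The kept stretches had 5.33 to 8.33 CpG per 100 bp, within the 3.00 to 10.3 of the lost ones. The CpG is not particular to these promoters: of all 21938 promoters, 95.5% held at least 1 in the 300 bases centred on the 5′ end, with a median of 4.67 per 100 bp.
Npy: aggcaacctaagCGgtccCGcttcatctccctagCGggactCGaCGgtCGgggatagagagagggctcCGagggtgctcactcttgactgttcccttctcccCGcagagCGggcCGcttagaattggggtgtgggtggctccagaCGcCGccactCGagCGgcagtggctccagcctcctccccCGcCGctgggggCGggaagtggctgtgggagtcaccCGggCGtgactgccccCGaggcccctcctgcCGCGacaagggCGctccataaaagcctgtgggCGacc
Nid1: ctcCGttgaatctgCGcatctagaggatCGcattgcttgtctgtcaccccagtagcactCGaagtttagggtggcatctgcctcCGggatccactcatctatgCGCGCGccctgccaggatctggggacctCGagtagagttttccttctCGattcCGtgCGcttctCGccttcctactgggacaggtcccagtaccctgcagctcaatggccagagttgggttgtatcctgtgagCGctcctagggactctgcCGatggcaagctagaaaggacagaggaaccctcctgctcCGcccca
Cdh3: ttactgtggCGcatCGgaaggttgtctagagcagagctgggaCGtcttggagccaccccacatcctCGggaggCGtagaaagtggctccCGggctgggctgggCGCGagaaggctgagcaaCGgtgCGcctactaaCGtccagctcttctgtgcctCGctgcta

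Coverage rose with all peaks at 4 loci. Cdc14b, a phosphatase of the cell cycle (chr13:64272290-64278289, minus strand), had 12.5%, 12.5% and 9.07% in the DMSO libraries and 19.3%, 20.02% and 21.4% in the GSK-126 libraries, a rise of 8.83 ± 1.72 points (adjusted p = 0.0118). It was also the promoter called higher in both settings. Cdh3, which encodes P-cadherin (chr8:106507891-106513890, plus strand), had 3.28%, 1.35% and 7.25% in the DMSO libraries and 12.03%, 9.80% and 17.5% in the GSK-126 libraries. Tll2, a metalloprotease of the tolloid family (chr19:41203835-41209834, minus strand), had 5.63%, 5.42% and 7.97% in the DMSO libraries and 12.5%, 10.4% and 12.9% in the GSK-126 libraries. All 3 windows had a peak in every DMSO library as well, so the rise was in the number of marked bases, and at each gene the groups did not overlap. Sowaha (chr11:53477274-53483273, minus strand), an ankyrin repeat gene, shares its window with the gene model Gm9945, and both had 7.05%, 7.05% and 1.10% in the DMSO libraries and 14.8%, 11.6% and 13.8% in the GSK-126 libraries. Adjusted p was 0.0324 at Sowaha, 0.0417 at Cdh3 and 0.0455 at Tll2. These calls were fragile. Those of Sowaha, Cdh3 and Tll2 did not survive the loss of any 1 GSK-126 library or of DMSO replicate 1 or 2, and that of Cdc14b without GSK-126 replicate 3, with 1 promoter called higher in its absence. The number called higher was also 1 when DMSO replicate 1 or 2 or GSK-126 replicate 2 was left out, and 2 when GSK-126 replicate 1 was.

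Other promoters stayed widely covered with GSK-126. The 8 with the highest coverage in their lowest GSK-126 library were Srd5a2, Cdc14b, Ptger3, Npy, Lox, Pkp1, Ccdc3 and Nid1, which were chosen by their GSK-126 values. Npy, the neuropeptide Y gene and ligand of the cleared receptor gene Npy2r (chr6:49819710-49825709, plus strand), had 20.6%, 19.3% and 20.5% in the DMSO libraries and 18.5%, 19.7% and 28.5% in the GSK-126 libraries. Pkp1, a desmosomal plakophilin (chr1:135916207-135922206, minus strand), had 17.2%, 17.8% and 18.3% in the DMSO libraries and 21.4%, 17.2% and 18.02% in the GSK-126 libraries. The groups overlapped at both, with changes of 2.09 ± 2.81 and 1.09 ± 1.73 points (adjusted p = 0.612 and 0.664); the sign turned at Npy without GSK-126 replicate 3 (-1.05 points) and at Pkp1 without GSK-126 replicate 1 (-0.175 points). Srd5a2, a steroid reductase (chr17:74044916-74050915, minus strand), had 25.7%, 20.7% and 35.2% in the DMSO libraries and 19.6%, 22.3% and 29.9% in the GSK-126 libraries. Ptger3, a prostaglandin E receptor (chr3:157563892-157569891, plus strand), had 20.1%, 21.9% and 26.2% in the DMSO libraries and 20.03%, 18.8% and 22.3% in the GSK-126 libraries. Lox, which cross-links collagen, had 15.2%, 21.8% and 29.2% in the DMSO libraries and 24.3%, 18.3% and 20.2% in the GSK-126 libraries. In each of the 3 the GSK-126 values lay among or near the DMSO values, and adjusted p was between 0.436 and 0.834. Nid1, a basement membrane protein (chr13:13434551-13440550, plus strand), was the lowest relative to DMSO, with 25.9%, 28.8% and 23.8% in the DMSO libraries and 22.4%, 19.2% and 16.9% in the GSK-126 libraries and a change of −6.65 ± 2.15 points (adjusted p = 0.0608). Its groups did not overlap, and the change passed the threshold without GSK-126 replicate 1.

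The Hedgehog, Wnt, and BMP and TGF-beta lists held a somewhat larger share of losses than the whole table, and the FGF list a smaller one. The counts were small, the lists were chosen with earlier results known, and the differences in share were not tested. Of the 2385 promoters tested with all peaks, 26.7% were called lower with a median change of −4.77 points, and lists are set against these values. In the Hedgehog pathway, which drives the division of granule neuron progenitors, 3 of 8 tested promoters (of 19 listed) were lower with a median of −7.53 points. No GSK-126 library had a peak at 5 of the 8, against 390 of all 2385 tested. Evc and Evc2 share a window, which leaves 7 loci, so these counts are small. Gli3, a transcription factor of the pathway, had 23.2%, 16.6% and 16.4% in the DMSO libraries and 0%, 0% and 5.77% in the GSK-126 libraries. Gli2, its activator paralog, had 9.77%, 4.87% and 7.17% in the DMSO libraries, in replicate order, and 0% in all 3 GSK-126 libraries. Hhip, which sequesters the ligand, had 7.70%, 9.33% and 11.3% in the DMSO libraries, in replicate order, and 0% in all 3 GSK-126 libraries. The groups did not overlap at any of the 3, and adjusted p was 0.00680, 0.0249 and 0.00799. Gli2 was not called when any 1 GSK-126 library, or DMSO replicate 3, was left out.

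The Wnt list had 8 of 20 tested promoters (of 45 listed) called lower, with a median of −6.08 points; the count was 5 without GSK-126 replicate 3 and 4 without replicate 2. They were mostly secreted modulators: the antagonists Dkk2, Dkk3, Frzb and Sfrp2 and the agonists Rspo2 and Rspo3, beside the ligand Wnt16 and the receptor Fzd6. Rspo3, an R-spondin that amplifies Wnt signals (chr10:29532867-29538866, minus strand), had 15.6%, 14.2% and 14.8% in the DMSO libraries and 3.57%, 2.7% and 2.82% in the GSK-126 libraries. Sfrp2, a decoy receptor for Wnt ligands (chr3:83763321-83769320, plus strand), had 22.4%, 19.4% and 19.9% in the DMSO libraries and 4.4%, 0% and 2.30% in the GSK-126 libraries. Both had tight groups that lay far apart (adjusted p = 0.00361 and 0.00275). The BMP and TGF-beta list had 10 of 26 tested promoters lower (of 60 listed; median −6.11 points), and 5 and 4 without the same libraries. They included the ligands Bmp3, Gdf10, Tgfb2 and Lefty2, the receptors Tgfbr2, Bmpr1b and Acvr1c, and the secreted antagonists Grem1 and Nbl1. Tgfbr2, the type II receptor (chr9:116172360-116178359, minus strand), had 21.1%, 17.2% and 18.6% in the DMSO libraries and 0%, 3.43% and 3.8% in the GSK-126 libraries. Tgfb2, a ligand chosen here after its values were seen, had 8.22%, 11.3% and 20.5% in the DMSO libraries, in replicate order, and 0% in all 3 GSK-126 libraries. Among FGF ligands and receptors 1 of 8 (of 26 listed) was lower, namely Fgf2 (median of the list −3.76 points).

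Guidance genes had a larger share of losses than all tested promoters and matrix genes a similar one, while neuronal receptors and channels had a smaller one; this order did not hold without GSK-126 replicate 3. Axon guidance had 7 of 16 tested promoters lower (of 72 listed; median −6.69 points), a count that fell to 2 without GSK-126 replicate 3 and 0 without replicate 2. Without replicate 3 its share was thus below that of the whole table (340 of 2385), and those of potassium channels and glutamate receptors, whose counts stayed at 3 and 2, were above it. The axon guidance genes lower were the ligands Sema3c, Sema6d, Slit2, Ntn1 and Efna1 and the receptors Robo3 and Epha6. Slit2, a midline repellent (chr5:47980138-47986137, plus strand), had 21.5%, 24.1% and 13.1% in the DMSO libraries and 4.68%, 2.60% and 9.40% in the GSK-126 libraries, and it kept a peak in every GSK-126 library; its call was lost without DMSO replicate 1, DMSO replicate 2 or GSK-126 replicate 2. Collagens and laminins had 7 of 25 tested promoters lower (of 55 listed; median −5.11 points), and 4 without either GSK-126 replicate 2 or 3. Col18a1, a basement membrane collagen (chr10:77163548-77169547, minus strand), had 16.6%, 18.6% and 20.98% in the DMSO libraries, in replicate order, and 0% in all 3 GSK-126 libraries. Voltage-gated potassium channels had 3 of 15 lower (of 40 listed; median −4.42 points), among them the silent modifier subunits Kcns3 and Kcnf1. Kcns3 (chr12:11148056-11154055, minus strand) was the most covered of them, with 37.0%, 32.2% and 29.6% in the DMSO libraries and 11.4%, 4.70% and 9.65% in the GSK-126 libraries. Its change of −24.4 ± 2.66 points left a peak in each GSK-126 library (adjusted p = 0.00331). Glutamate receptors had 2 of 11 lower (of 26 listed; median −4.52 points), both metabotropic: Grm2, with 15.1%, 15.2% and 14.3% in the DMSO libraries and 7.53%, 0% and 0% in the GSK-126 libraries, and Grm6, with 10.9%, 10.5% and 10.3% in the DMSO libraries and 0%, 3.10% and 0% in the GSK-126 libraries. The DMSO libraries lay close together at each gene, and 1 GSK-126 library kept a peak. GABA-A receptor subunits had 0 of 2 lower (of 19 listed).

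The lists of fate factors held a smaller share of losses than the whole table. Transcription factors of non-neural lineages had 2 of 24 tested promoters lower (of 94 listed), Klf4 and Eya4, with a median of −2.59 points, and factors of other neural regions had 1 of 7 (of 77 listed), Otx2 (median −2.22 points). None of these 3 calls held without GSK-126 replicate 3. Epithelial junction genes had 3 of 20 tested promoters lower (of 37 listed), Cldn23 and Perp among them, of which Cldn23 was called without GSK-126 replicate 3, and 1 higher, Cdh3 (median −2.49 points). Hox genes, textbook targets of Polycomb, could hardly be assessed, because 4 of 39 had any peak and 1 was tested. Of the marker lists of other cells, glial, microglial and vascular genes had 3 of 7 lower, Gdf10, Kdr and Cldn5 (median −6.04 points), and Purkinje cell and interneuron genes had 2 of 7, Pvalb and Foxp2 (median −4.68 points). Without GSK-126 replicate 3 the counts were 2 and 0. Mean coverage over the 38 glial, microglial and vascular promoters was 1.78% to 2.34% with DMSO and 0.630% to 0.849% with GSK-126, and 23 of them had no peak in any library. The share of such cells in the cultures was not measured, and its part in these values was not tested. Of 7 tested ribosomal protein promoters 0 were called (median −0.472 points).

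The Polycomb machinery carried the mark at a few of its own genes. Epop, which tempers PRC2 output (chr11:97626702-97632701, minus strand), had 15.5%, 6.80% and 9.78% in the DMSO libraries, in replicate order, and 0% in all 3 GSK-126 libraries. Phf19, a Polycomb-like subunit that recruits PRC2 (chr2:34911026-34917025, minus strand), had 10.5%, 26.0% and 11.7% in the DMSO libraries and 0%, 1.62% and 0% in the GSK-126 libraries. These were the only tested promoters of 12 PRC2 genes, and both were called lower (adjusted p = 0.0195 and 0.0330). The wide spread between DMSO libraries at Phf19 came from replicate 2. Neither call held without GSK-126 replicate 3. None of 2 tested PRC1 promoters was called, and the 3 H3K27 demethylase genes had no peak in any library.

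When GSK-126 replicate 3 was left out, 340 of all 2385 promoters were called lower, 333 of them also called with it, and the median change was −4.55 points. The Hedgehog count was then 2. The counts of potassium channels, glutamate receptors, FGF genes and early CGN genes were the same as with it, and that of axon guidance was 2. List medians moved less, for example to −6.27 points for Wnt and −6.16 for axon guidance. At equal length few members were tested, and Dkk2 of the Wnt list (9 tested) and Bmp3 of the BMP list (11 tested) were the members called lower.

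**Figure D4:**
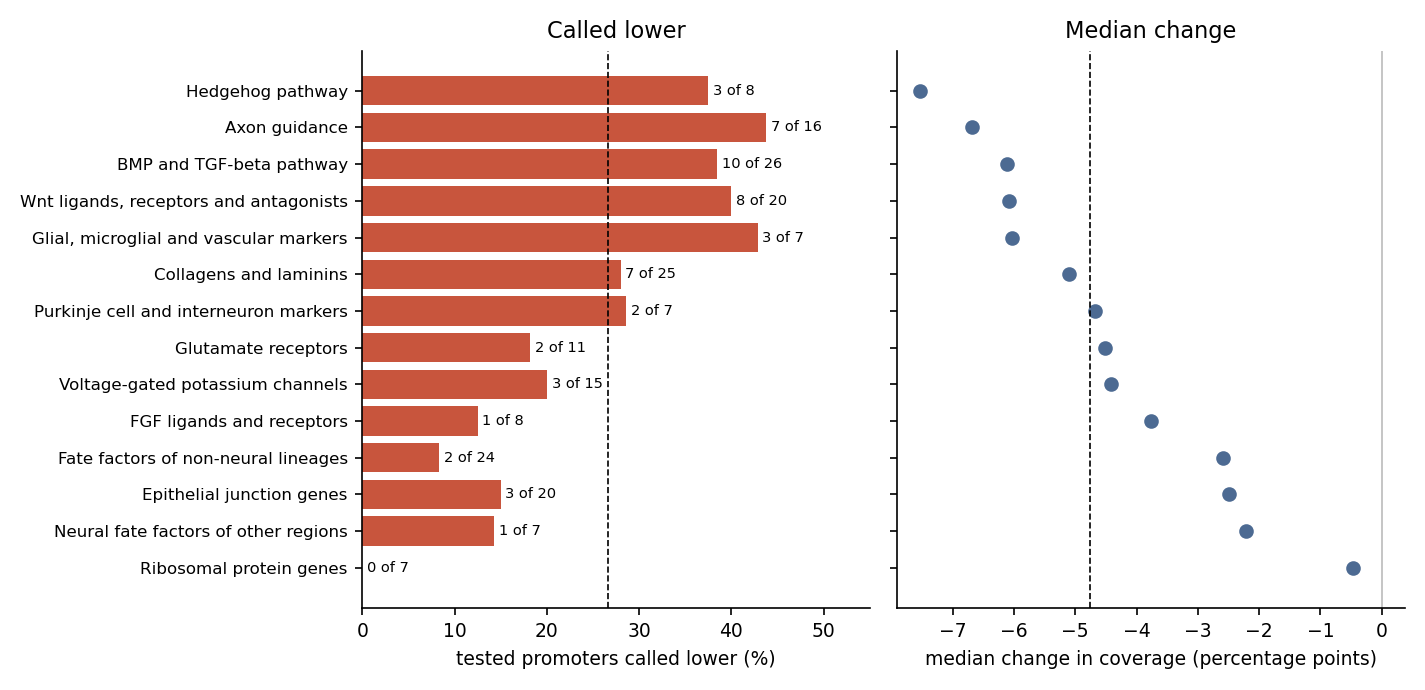
Percent of tested promoters called lower with GSK-126 (left) and median change in coverage in percentage points (right), all peaks, for each gene list with at least 5 tested members. Dashed lines mark the values over all 2385 tested promoters (26.7% and −4.77 points); Hedgehog, axon guidance, BMP and TGF-beta, Wnt, glial, microglial and vascular, and collagen and laminin genes lie past both lines.

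Genes that the study used as examples of early and late CGN expression were marked at few promoters. Atoh1, the transcription factor of granule neuron progenitors (chr6:64726125-64732124, plus strand), had 9.10%, 11.98% and 14.4% in the DMSO libraries, in replicate order, and 0% in all 3 GSK-126 libraries, a change of −11.8 ± 1.83 points (adjusted p = 0.00623). It was the only example gene called. The stretch marked in all 3 DMSO libraries was 481 bp of coding sequence, and the call held in each of the 10 alternatives that gave a value. Jag1, a Notch ligand, had 6.33%, 10.3% and 9.15% in the DMSO libraries and 5.22%, 0% and 0% in the GSK-126 libraries; the groups did not overlap, and the adjusted p of 0.0541 missed the threshold. Myc, a driver of progenitor division, had 4.72%, 14.1% and 1.28% in the DMSO libraries and no peak in any GSK-126 library (adjusted p = 0.164), with a wide spread among the DMSO values. Grin2c, an NMDA receptor subunit of mature CGNs, had 15.1%, 5.68% and 8.0% in the DMSO libraries and 3.8%, 11.4% and 0% in the GSK-126 libraries, which overlapped (adjusted p = 0.386). Mycn had a peak in GSK-126 replicate 2 alone and Gabrd in GSK-126 replicate 3 alone, while Ebf3, Nfib, Olfm3 and Gabra6 had none in any library. Grm4, Slc17a6 and Tubb5 each had a peak in a single library, and Wnt7a in GSK-126 replicates 2 and 3. A window without a called peak may still carry the mark. From CUT&RUN signal of this experiment, the paper reports EZH2-dependent H3K27me3 at promoters or enhancers of Mycn and Ebf3. It reports the mark at Gabrd and Grin2c as unaffected by GSK-126. Where the study chose these genes on samples of this series, their direction is not independent evidence.

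Gene bodies lost the mark as well, with far fewer calls. With all peaks coverage fell at 93 of 1581 tested gene bodies (5.88%) and rose at none (0.0% by limma, 11 at an unadjusted p under 0.05). Peaks cover a small part of a long gene, so changes were small: the median over all tested was −0.174 points, and the GSK-126 mean was lower at 1325. Batf, a transcription factor of lymphocytes (chr12:85686669-85709087), had a body coverage of 1.88%, 2.03% and 1.86% in the DMSO libraries, in replicate order, and 0% in all 3 GSK-126 libraries. Opalin, a protein of oligodendrocyte myelin (chr19:41061710-41077113), had 1.06%, 0.903% and 0.863% in the DMSO libraries, in replicate order, and 0% in all 3 GSK-126 libraries. Nmbr, a neuromedin receptor (chr10:14705591-14770850), had 0.572%, 0.563% and 0.501% in the DMSO libraries, in replicate order, and 0% in all 3 GSK-126 libraries. In these genes, and likewise in Tox3 and Ccbe1, no GSK-126 library had a peak in the body, while the DMSO libraries lay close together (adjusted p 0.00131 for Batf and 0.0106 for the others). Prr5l, a partner of the TORC2 kinase complex, kept a peak in GSK-126 replicate 1 only (adjusted p = 0.0117). The number of gene bodies called was 9, 1 and 1 without GSK-126 replicates 1, 2 and 3, and 61 without DMSO replicate 1, so it rests on all 3 GSK-126 libraries. The calls of Opalin, Nmbr, Tox3 and Ccbe1 were each lost without any 1 GSK-126 library, and that of Batf was not.

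At equal length 3 of 664 gene bodies were lower (0.452%) and 2 higher (0.301%). The lower ones included Cdk2ap1, a regulator of CDK2 (chr5:124345417-124363082), with 6.01%, 5.91% and 5.48% in the DMSO libraries and 0%, 0% and 0.423% in the GSK-126 libraries (change −5.66 ± 0.203 points, adjusted p = 0.00106). The higher ones were Guca1a, an activator of photoreceptor guanylate cyclase (chr17:47394558-47400584), at 0% in all 3 DMSO libraries and 4.92%, 5.95% and 4.92% in the GSK-126 libraries, and Cfap221, a cilia gene (chr1:119923341-119997234), at 0% and 0.657%, 0.631% and 0.549%. Both higher calls were lost without DMSO replicate 2, and the count of lower ones was 10 without DMSO replicate 3. The number higher was 8 or 6 when GSK-126 replicate 2 or 3 was left out and 1 when DMSO replicate 1 was.

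The 10 kb bins, which take no account of genes, gave the same direction. With all peaks coverage fell in 803 of 6839 tested bins (11.7%) and rose in 5 (0.0731%), with a median change of −1.51 points. Of 2923 bins that touched a promoter window 18.03% fell, against 8.003% of 1437 bins in genes away from promoters and 6.49% of 2479 bins outside both. Calls outside genes thus made up a part of the loss. Among the smallest adjusted p were the bins at the 5′ parts of Col18a1 (chr10:77160001-77170000), Slc16a9 (chr10:70240001-70250000), a member of the monocarboxylate transporter family, and Slc35f1 (chr10:52690001-52700000). The Slc16a9 bin had 8.38%, 9.05% and 10.8% in the DMSO libraries, in replicate order, and 0% in all 3 GSK-126 libraries. A bin inside Wnt3 (chr11:103810001-103820000), a Wnt ligand, held no promoter window and had 8.53%, 9.34% and 9.02% in the DMSO libraries and 0%, 0% and 1.57% in the GSK-126 libraries. Both were separated between groups (adjusted p = 0.00559), so at Wnt3 the loss lay within the gene, beyond 3 kb from its 5′ end. Of the 5 bins that rose, 3 were the promoters of Cdc14b, Sowaha and Tll2 again, and the other two lay outside genes nearest to Hephl1 (chr9:15130001-15140000), with 1.95%, 0% and 1.15% in the DMSO libraries and 5.65%, 6.24% and 4.80% in the GSK-126 libraries, and to Notch3 (chr17:32100001-32110000), with 0.480%, 0% and 0% in the DMSO libraries and 5.66%, 3.69% and 2.64% in the GSK-126 libraries. The DMSO libraries had little or no coverage in either bin. The number of bins called lower was 195 without GSK-126 replicate 3, 124 without replicate 2, 535 without replicate 1 and 529 without DMSO replicate 2; the number higher was 1, 0 and 1 without GSK-126 replicates 1, 2 and 3 and 3 and 2 without DMSO replicates 1 and 2. The calls at Hephl1 and Notch3 were lost without any 1 GSK-126 library.

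At equal length 53 of 2515 bins were lower (2.11%) and 34 higher (1.35%). With a mean-variance trend in eBayes, and also with a replicate block, 0 were lower and 0 higher. Leaving out a gene model without a name, the 6 lower bins with the smallest adjusted p lay at Ptprm, Bmp3, Slc1a5 and Car2 again, at Mboat1, a lysophospholipid acyltransferase, and near Cdh4, a cadherin. The bin nearest Cdh4 (chr2:179170001-179180000), outside genes, had 10.6%, 9.75% and 11.4% in the DMSO libraries and 0%, 1.24% and 0% in the GSK-126 libraries (adjusted p = 0.00771). Among the 34 higher bins, 7 lay outside genes and promoters and Cdc14b had the smallest adjusted p. Leaving out gene models without a name and bins called with all peaks, the 6 with the smallest adjusted p lay at the promoters of Car4, Pkp1, Slc5a1, Ccr9 with Slc6a20a, Cfap221 and Col14a1, and all 6 were at 0% in every DMSO library at this length. The Pkp1 bin (chr1:135910001-135920000) had 12.8%, 10.3% and 10.8% in the GSK-126 libraries, although with all peaks the Pkp1 promoter was covered alike in both groups. Without DMSO replicates 1, 2 and 3 and then GSK-126 replicates 1, 2 and 3, the numbers lower were 27, 9, 32, 29, 14 and 22 and the numbers higher 8, 3, 8, 28, 23 and 23.

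Peaks that persisted at promoters were, where the test called them, higher over background with GSK-126. The highest fold enrichment in the window was compared at the 733 promoters with a peak in all 6 libraries, a set that leaves out every promoter whose signal fell below the caller's threshold. It was higher with GSK-126 at 61 (8.32%) and lower at none (0.0% by limma, 6 at an unadjusted p under 0.05), with a median change of 0.11 on the log2 scale and a higher mean at 661. Grm7, a metabotropic glutamate receptor (chr6:110642581-110648580), had a fold enrichment of 2.95, 2.68 and 2.95 in the DMSO libraries and 3.98, 3.88 and 3.86 in the GSK-126 libraries, a log2 change of 0.45 ± 0.074 (adjusted p = 0.000616). Kpna1, a nuclear import adaptor (chr16:35975750-35981749), had 4.91, 4.99 and 4.61 in the DMSO libraries and 6.68, 9.45 and 6.91 in the GSK-126 libraries. The groups did not overlap at these genes or at Tmtc1, Vwc2 and Cobl, which were also among those with the smallest adjusted p. Over whole lists, which did not hold the same peaks, the library median averaged 3.78 with DMSO and 4.09 with GSK-126, a ratio of 1.08. A rise was thus not particular to these promoters. Fold enrichment is relative to each library's own local background, so a rise is not an amount of histone mark. The count of higher promoters was 332, 15 and 32 when GSK-126 replicates 1, 2 and 3 were left out in turn, and 23 and 16 when DMSO replicates 1 and 2 were.

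The same picture came from the regions that DMSO neurons marked reproducibly. There were 3624 stretches of at least 50 bp under a peak in all 3 DMSO libraries. GSK-126 replicates 1, 2 and 3 had a peak at 62.5%, 44.2% and 50.2% of them; 1118 (30.8%) were met in all 3 libraries and 926 (25.6%) in none. Without GSK-126 replicate 3, 38.4% were met in both remaining libraries. Retention hardly differed by place, at 29.6% in promoters, 30.5% in gene bodies and 33.0% between genes. It was highest where the DMSO peaks were widest. In the widest of 4 equal groups (median width 911 bp) 49.0% were kept in all 3 libraries and 11.5% in none, against 26.0%, 21.2% and 27.2% kept in the other groups from narrow to wide. The median width rose from 373 bp for regions met in no GSK-126 library to 607 bp for those met in all 3. A wide peak offers more bases to meet, and these shares are counts of overlap by at least 1 base.

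Peak height and CpG content ordered retention less simply. Across 4 equal groups by DMSO fold enrichment, from low to high, 31.7%, 30.5%, 19.3% and 41.9% were kept in all 3. The high value of the top group came from outside promoters: it was 47.2% in gene bodies and 45.1% between genes, and 29.0% in promoters. Across 4 equal groups by CpG content the shares were 33.4%, 25.2%, 31.7% and 33.2%, with no order. Regions are not replicates, and these shares are descriptions. Untreated DIV5 cultures met 70.3% to 84.1% of these regions, and the DMSO cultures of the GSK-J4 experiment 62.7% to 71.2%. Both ranges lay above every GSK-126 library, the second one narrowly. The GSK-J4 cultures, also at DIV5, met 57.3%, 58.8% and 80.2%, a range that overlapped the GSK-126 libraries. Limited to the strongest 1.07 Mb, the untreated range was 36.1% to 43.3% and that of the other DMSO cultures 44.9% to 47.0%. It was 38.7% to 48.0% for GSK-J4 and 38.1% to 44.2% for GSK-126. At equal length the range of the GSK-126 libraries overlapped that of untreated DIV5 cultures.

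The position of the mark around the 5′ end was little changed where it remained. Summed over all promoters, coverage peaked 250 to 350 bp downstream of the 5′ end in the 3 DMSO libraries and in GSK-126 replicates 1 and 2, where it reached 4.30%, 4.62% and 4.09% of promoters with DMSO and 2.48% and 1.46% with GSK-126. GSK-126 replicate 3 differed, with a maximum of 4.21% in the bin centred 50 bp upstream. Its maximum was 45.1 times its own level beyond 4 kb, against 17.3 to 24.0 times in the other libraries. Of the coverage in the 1893 promoters peaked in all 3 DMSO libraries, 75.4% to 75.7% lay downstream with DMSO and 77.0% to 79.5% with GSK-126. In the promoters peaked in GSK-126 replicate 3 alone it was 52.4%.

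**Figure D5:**
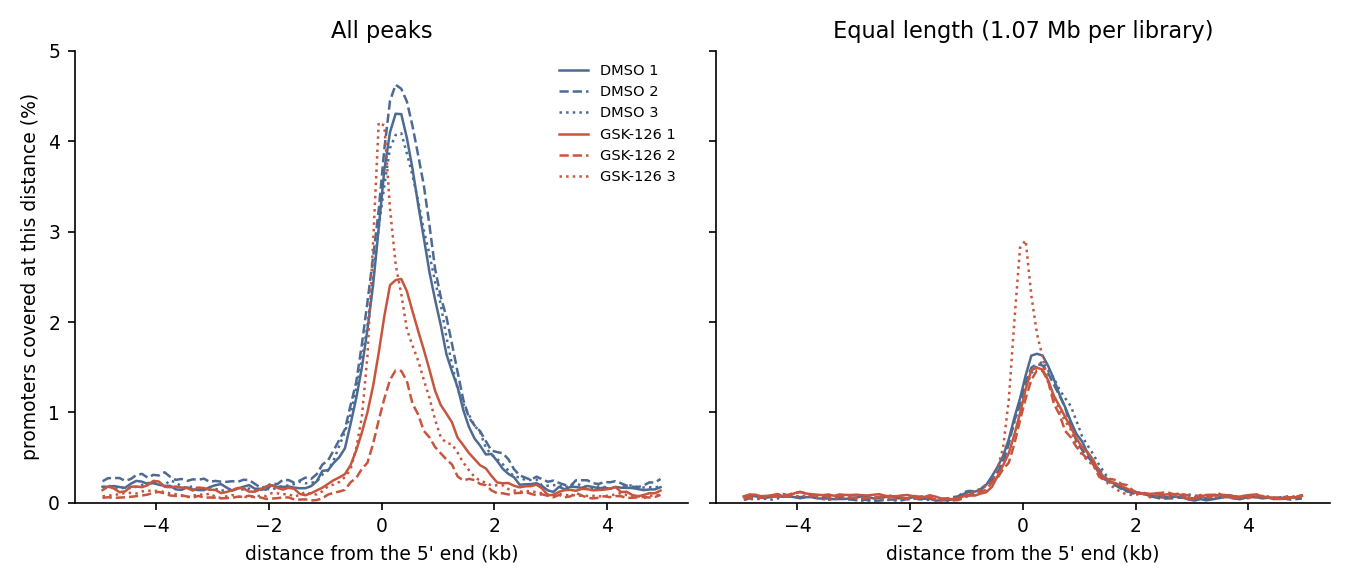
Percent of all protein-coding promoters covered by a peak (vertical axis) by distance from the 5′ end in kb (horizontal axis), with all peaks (left) and at equal length (right). Lines are the 6 libraries; with all peaks the DMSO libraries reached 4.09% to 4.62% and GSK-126 replicates 1 and 2 2.48% and 1.46%, while GSK-126 replicate 3 had a narrow maximum of 4.21% at the 5′ end.

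CpG content overlapped between lost and kept promoters. Within 500 bp of the 5′ end the median was 4.10 CpG per 100 bp over all promoters, 5.30 over those tested, 5.75 over the 636 called lower, 5.50 over the 390 that lost every peak and 5.20 over the 733 peaked in all 6 libraries. The middle ranges (25th to 75th percentile) of the last 2 groups overlapped widely (4.0 to 7.57 and 3.60 to 7.00). The promoters peaked in GSK-126 replicate 3 alone had a median of 7.50.

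In untreated cultures at equal length, promoters that fell with GSK-126 were more covered at DIV5 than at DIV1. These libraries took no part in the comparison, and were limited to the same 1.07 Mb. Over the 636 promoters called lower with all peaks, mean coverage was 3.13% ± 0.360 at DIV1 and 5.08% ± 0.149 at DIV5 (SD, n = 3), and 381 promoters were higher and 161 lower at DIV5. Over the 41 called lower at equal length it was 7.05% ± 1.68 at DIV1 and 12.7% ± 1.02 at DIV5, with 32 higher and 6 lower. The 733 promoters peaked in all 6 libraries had 5.94% ± 0.531 at DIV1 and 5.67% ± 0.108 at DIV5, and all 2385 tested promoters had 2.99% ± 0.194 at DIV1 and 3.11% ± 0.0376 at DIV5. Of the promoters whose mean differed, 70.3% of the 636 were higher at DIV5, against 47.0% of those peaked in all 6 libraries and 51.9% of all tested. With all peaks the days overlapped over the 636, at 3.36%, 14.2% and 11.0% at DIV1 and 13.3%, 8.98% and 14.0% at DIV5. Over the 41 they did not, at 5.87%, 13.1% and 12.9% at DIV1 and 18.8%, 14.0% and 17.7% at DIV5. The DMSO libraries are DIV5 cultures too, and promoters picked for high coverage in them lean towards DIV5. AraC was added between DIV1 and DIV5, and maturation and AraC cannot be told apart here.

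The 41 promoters called lower at equal length were also compared with the other drug experiment of the series, in which GSK-J4 inhibits the KDM6 demethylases. Their mean coverage was 16.5% ± 0.605 with DMSO and 2.21% ± 0.347 with GSK-126 (SD, n = 3, and chosen on these libraries). It was 11.9% ± 0.514 with the DMSO of the other experiment and 11.6% ± 1.22 with GSK-J4. All of these libraries were DIV5 cultures limited to the same length. The 41 were picked for low values with GSK-126 and high values with its DMSO. The low level with GSK-126 thus follows from the choice, and no specificity to the drug can be read from it. GSK-J4 and its own DMSO, which took no part in the choice, differed little. The 23 promoters called higher at equal length were likewise chosen on the GSK-126 experiment. Their coverage was 0.325% ± 0.1001 with DMSO and 13.3% ± 1.02 with GSK-126. It was 1.90% ± 1.06 in untreated DIV5 cultures and 5.40% ± 0.925 with the other DMSO.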

How the data were processed

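H3K27me3 was profiled by CUT&RUN with the Epicypher kit and an Active Motif antibody. Per the study's methods, the authors trimmed reads with Trimmomatic 0.38, aligned them to mm10 with STAR 2.7.2b and called broad peaks in each library with MACS2 2.1 at a false discovery rate of 0.1. The deposited peak lists hold, for each peak, a fold enrichment over local background and −log10 p and q values. The control for the calls is not given in the sources used here, and read depth is unknown.

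Percent coverage was computed from these intervals with Python 3.11.15, numpy 2.4.6 and pandas 2.3.3 over GENCODE mm10 promoters, gene bodies of at least 1 kb and 10 kb bins. Equal length kept the peaks with the highest −log10 p up to 1.07 Mb, which sets aside differences in list length whatever their source. limma 3.58.1 (robust eBayes, R 4.3.3) compared the 3 GSK-126 with the 3 DMSO libraries, 2-sided, without a replicate block. It was also run on simulated coverage, with deviations shuffled between libraries within each feature. That setting leaves out differences between whole libraries, such as that of GSK-126 replicate 3. Whole-library measures were compared by exact permutation.

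Named promoters were the study's examples, the 12 largest losses in both settings, all called higher with all peaks, up to 4 called members of each list and the 8 most covered with GSK-126. For gene bodies, bins and fold enrichment they were up to 6 by adjusted p in each direction. Gene models were left out, and some named items are not reported here. The members, lists and rules were chosen with earlier results of these data known. The authors' own test used DESeq2 on read counts, which were not analysed here.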

Additional observations from a re-analysis of the deposited data

How the results depend on the processing

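Reported values were recomputed under each alternative. With the replicate block, promoters called lower and higher at equal length were 0 and 0, gene bodies 1 and 0, and bins 0 and 0. With all peaks it gave 5 gene bodies lower, 295 bins lower and 1 higher, and for fold enrichment 137 promoters higher and 3 lower. The replicate numbers were not shown to pair the cultures. Over promoters with all peaks, deviations from the group means correlated by 0.0765, 0.0254 and 0.124 between libraries of equal number. DMSO replicates 1 and 3 correlated best with their own number, and DMSO replicate 2 with another number.

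With peaks of −log10 q of at least 2, which left 0.290 Mb per library at equal length, promoters lower and higher were 20 and 0 with all peaks and 4 and 0 at equal length. Gene bodies were 6 and 1 with all peaks, with 1 higher at equal length, and bins were 41 lower with all peaks and 20 lower and 5 higher at equal length. The difference in length was then −0.187 Mb, and the differences in percent of length in promoters, percent of peaks in promoters, in gene bodies and between genes turned to −7.49, −0.903, 0.729 and 0.174 points. The share of length in promoters also turned without GSK-126 replicate 3; over the libraries left out it ranged from −0.714 to 4.79 points.

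Testing features covered in at least 1 library gave 26 promoters lower at equal length and 2 higher with all peaks, 20 gene bodies lower with all peaks, and 25 bins lower and 18 higher at equal length. Windows of 1 kb gave 3 promoters higher. A mean-variance trend gave 1 promoter lower and 0 higher, 0 and 0 gene bodies and 0 and 0 bins at equal length, and 1 bin higher with all peaks. Ranking by fold enrichment gave 64 promoters lower, and 6 gene bodies lower and 4 higher; the Bmp3 bin at equal length then turned to 2.25 points. Whole gene spans gave 356 gene bodies lower and 1 higher with all peaks, and 28 lower and 19 higher at equal length. Mean instead of highest fold enrichment gave 121 promoters higher and 1 lower. DMSO regions kept in all 3 libraries were 17.4% when at least 1 base in 2 had to be covered, 51.4% with peaks of −log10 q of at least 2 and 38.3% for regions of the other DMSO set. The cause of these differences was not tested.

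Leaving out each library in turn gave, at equal length, 1 to 22 promoters lower and 0 to 16 higher, 2 to 10 gene bodies lower and 0 to 8 higher, and 9 to 32 bins lower and 3 to 28 higher. With all peaks the ranges were 297 to 641 promoters lower and 1 to 5 higher, 1 to 75 gene bodies lower and 0 to 1 higher, and 124 to 704 bins lower and 0 to 6 higher. For fold enrichment they were 15 to 332 higher and 0 to 1 lower. The length difference ranged from −2.34 to −1.86 Mb and the regions kept from 33.5% to 41.4%. The direction also turned in some of these for promoters not called, with ranges of −1.41 to 1.65 points at Ccdc3 (−1.07 and −0.0778 between), −4.59 to 2.39 at Lox (0.167 between), −1.05 to 3.97 at Npy, −0.175 to 1.94 at Pkp1 and −6.47 to 0.756 at Srd5a2. Depth is unknown, and a peak below the caller's threshold reads as 0.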
